A study of Mus musculus with 10 samples.

Results

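The 44 DNA repair genes described here are the ATM and ATR damage kinases with their checkpoint partners, the homologous recombination and end resection genes, the Fanconi genes, and members of end joining, mismatch, base excision and nucleotide excision repair. They were taken by symbol from the 52171 genes of the deposited table, and all 44 passed the filter on low values. The rule uses no measured value, but the list was chosen with earlier results of these data known. The cells were leukemia stem cells sorted from mouse bone marrow as lineage-negative and Sca-1-negative cells with c-Kit, CD16/32 and CD34 on their surface. The mice had acute myeloid leukemia that the fusion oncogene MLL-AF9 had started. The labels name the cell type hematopoietic stem cell. The 5 Nup214 HET libraries carried the genotype Nup214fl/+,Tie2-Cre, in which 1 floxed allele of the nucleoporin gene Nup214 meets a Cre recombinase driven by Tie2, a promoter active in endothelial and blood cells. The 5 floxed control libraries carried Nup214fl/+ alone. Both groups shared the leukemia and the floxed allele, and only the HET group carried Cre, so an effect of Cre and one of the lost allele cannot be told apart. The labels give neither age nor sex, and whether each library is a mouse of its own is not stated, so the tests speak of the spread between these libraries, which may be technical.

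Cells meet DNA damage with pathways that divide the work by lesion. ATM, alerted at double-strand breaks by the complex of MRE11, RAD50 and NBN, and ATR, which responds to stalled replication, phosphorylate the checkpoint kinases CHK2 and CHK1. Breaks are then either resected and copied from the sister chromatid by homologous recombination or rejoined directly by end joining, while the Fanconi pathway unhooks crosslinks between DNA strands. Single altered or mispaired bases are handled by base excision and mismatch repair, and bulky lesions by nucleotide excision repair. In blood stem and progenitor cells this network is known for its medical weight, since inherited loss of Fanconi genes causes bone marrow failure and a predisposition to leukemia.

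Values are normalized reads, the authors' read count of a gene divided by 1 factor per library, and are not corrected for gene length. Depth was 24.6 to 39.1 M reads in the HET libraries and 20.8 to 30.1 M in the floxed controls. Despite that depth, fewer genes had a read in the HET libraries, 19541 to 25684, against 26913 to 30277 in the floxed controls, without overlap. The part of this difference in the calls was not tested. Nup214, the targeted gene, had 376, 504, 602, 446 and 492 normalized reads in the HET libraries, against 867, 908, 984, 811 and 959 in the floxed controls. Every HET library lay below every control, and the HET mean was 53.4% of the control mean (log2 fold change -0.92, SE 0.130, adjusted p = 0.00144 by limma). The HET libraries were not uniform. Summed over 15 mature neutrophil markers, among which S100a8 and S100a9 were the most abundant, HET libraries 1 and 2 held 43839 and 97597 normalized reads, HET libraries 3, 4 and 5 held between 1735710 and 4079340, and the controls held between 1115850 and 1634690. Hemoglobin Hba-a1 likewise stood at 1.91 and 31.1 in HET libraries 1 and 2, at 801, 939 and 824 in HET libraries 3 to 5, and between 0 and 14.9 in the controls. Several repair genes followed this split of 2 against 3 libraries, and results that depend on it are given below with and without those libraries. The split was seen in these same data, so calls and p-values in the reduced comparisons describe it and do not test it. In bulk RNA, fewer cells of a type and less RNA per cell cannot be told apart.

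Few of the repair genes differed between the groups beyond the test's threshold. Chek2, Nbn and Xrcc4 were higher in the HET libraries and Blm was lower, at a limma adjusted p under 0.05 across all 22458 genes tested. The other 40 did not pass. Of all genes tested, 5.0% were called higher and 8.01% lower. Among the 8843 genes whose mean level lay within the range of the repair genes, 8.19% were higher and 4.22% lower, so 3 of 44 higher (6.82%) and 1 of 44 lower (2.27%) did not exceed the background. The median log2 fold change was 0.06 over the repair genes and 0.04 over the genes in that range, while it was -0.19 over all genes tested. Quantile normalization brought the median of all genes to -0.02 and that of the repair genes to -0.01. In 6 repair genes every HET library lay above every control (13.6%, beside 7.9% of the genes in the range), and in 1 every HET library lay below (2.27%, beside 4.01%). The 95% interval of the fold change stayed within 2-fold in either direction for 43 of the 44 genes, the exception being Fancf.

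**Figure D1:**
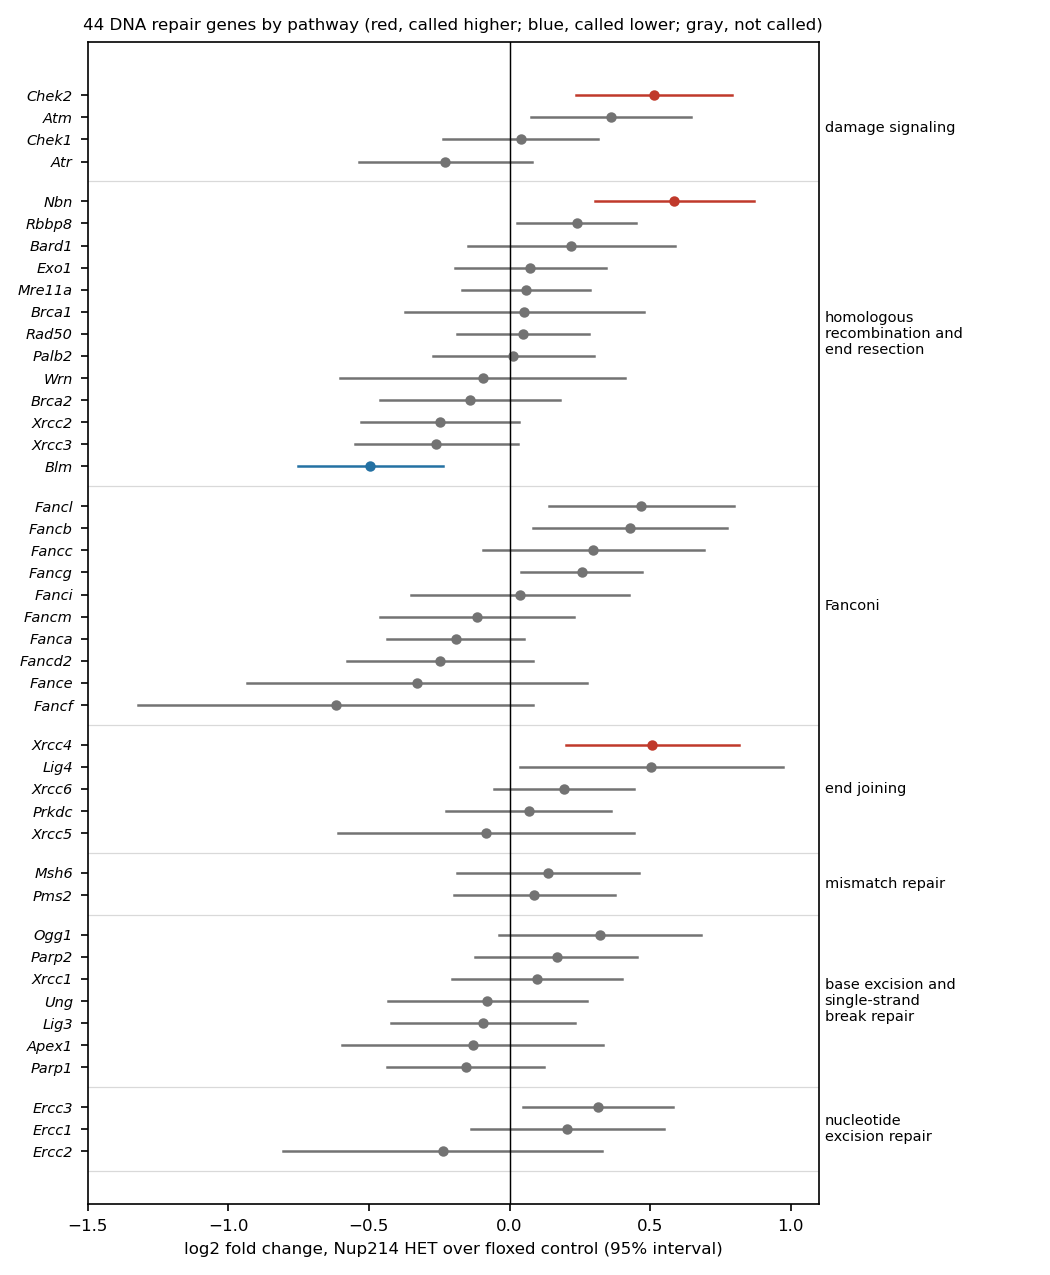
Log2 fold change of each of the 44 repair genes, Nup214 HET over floxed control, with its 95% interval from limma, grouped by pathway and sorted within it. Points to the right of 0 were higher in HET; 3 red points (Chek2, Nbn and Xrcc4) and 1 blue point (Blm) mark the called genes, and the widest interval belongs to Fancf.

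Among the 4 damage signaling genes, the checkpoint kinase gene Chek2 was higher in HET cells. Chek2 (ENSMUSG00000029521.7, mm10 chr5:110839979-110874145, plus strand) encodes the kinase that ATM activates after a double-strand break and that acts on p53 and the cell cycle phosphatases. It had 958, 1075, 775, 991 and 732 normalized reads in the HET libraries, against 724, 632, 594, 619.9 and 576 in the floxed controls. The lowest HET library, number 5, stood just above the highest control, number 1. The means were 906 ± 147 in HET and 629 ± 57.3 in control libraries (SD, n = 5 each), which is 0.51 as a log2 fold change (SE 0.128, adjusted p = 0.0237 by limma). The call was lost without control library 5 (adjusted p = 0.0604) and under quantile normalization (adjusted p = 0.0826).

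Promoters of Chek2, Blm and Xrcc4, the called genes matched in the RefSeq promoter table (Nbn was not matched), are shown where each gene is described. That of Chek2 holds an E2F-type motif, the kind found in many replication genes. The sequence is RefSeq's (GRCm38.p6, chr5:110839733-110840032, plus strand), from 250 bases before to 50 bases after the start, 5′ to 3′, with exact matches of 6 searched motifs on either strand in capitals.
Chek2: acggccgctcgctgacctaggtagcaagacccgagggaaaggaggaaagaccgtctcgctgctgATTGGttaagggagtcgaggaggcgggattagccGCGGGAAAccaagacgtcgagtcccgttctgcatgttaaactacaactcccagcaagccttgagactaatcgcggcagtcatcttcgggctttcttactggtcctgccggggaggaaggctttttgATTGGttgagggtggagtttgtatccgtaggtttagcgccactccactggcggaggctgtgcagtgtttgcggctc
The capitals mark 2 CCAAT boxes, read as ATTGG on the printed strand, and 1 E2F motif, read as GCGGGAAA.

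The upstream kinase gene Atm was not called, although its groups did not overlap. It had 161, 188, 185, 167 and 179.9 normalized reads in HET libraries, against 131, 153, 119, 143 and 140.2 in controls (log2 fold change 0.36, SE 0.132, adjusted p = 0.0854 by limma). Atr, the replication stress kinase, averaged 166 ± 18.6 in HET and 195 ± 25.8 in control libraries, with overlapping groups. Its partner Chek1 averaged 259 ± 25.8 in HET and 252 ± 26.4 in control libraries (SD, n = 5 each). Neither Atr nor Chek1 passed the test. Per kilobase of exon, the ratio of Atm to Atr was 2.45 ± 0.272 in HET libraries and 1.63 ± 0.257 in controls, without overlap, whereas the ratio of Chek2 to Chek1 was 5.44 ± 0.956 in HET and 3.90 ± 0.679 in controls, with overlap. The annotated exons of Atr cover 23629 bases and those of Atm 10338, so the size of their ratio depends on that length. Its difference between the groups does not. No share of ratios without overlap was computed over other gene pairs. In normalized reads, Atr averaged 195 and Atm 137 in controls, and 166 and 176 in HET libraries.

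**Figure D2:**
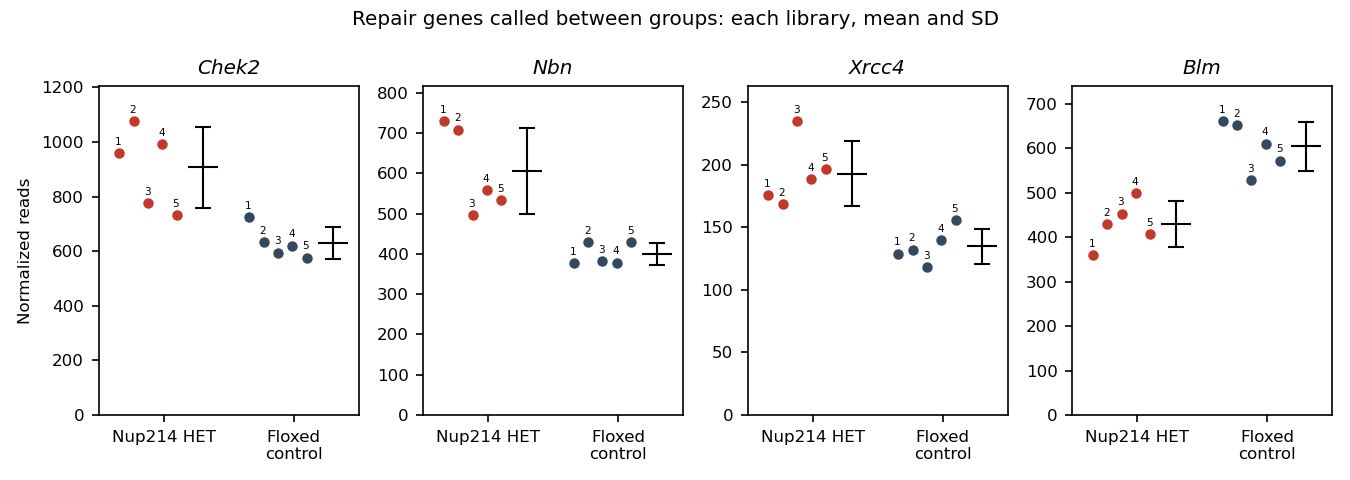
Normalized reads of Chek2, Nbn, Xrcc4 and Blm in each of the 10 libraries (numbered points), with the mean and SD of each group of 5 beside them; Nup214 HET is left of floxed control. HET and control points do not overlap in any of the 4 panels, and the HET points lie above in the first 3 and below in the fourth.

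Of the 13 homologous recombination and end resection genes, Nbn was higher, Blm was lower and 11 did not pass. Nbn (ENSMUSG00000028224.14, mm10 chr4:15957925-15992589, plus strand) encodes nibrin, the subunit that brings ATM to the MRE11 and RAD50 complex at broken ends. It had 729, 709, 495, 558 and 534 normalized reads in HET libraries, against 377, 429, 381, 378 and 428 in floxed controls. The values of HET libraries 1 and 2 were the highest, and those of HET libraries 3 to 5 also lay above every control. The means were 605 ± 107 in HET and 399 ± 27.3 in control libraries (SD, n = 5 each), which is 0.585 as a log2 fold change (SE 0.131, adjusted p = 0.0156 by limma). Nbn was the 1 repair gene called in all 22 alternatives.

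The other subunits of that complex did not pass the test. Rad50, which ties the ends together, averaged 996 ± 99.1 in HET and 964 ± 89.4 in control libraries. Mre11a, the nuclease, averaged 531 ± 42.6 in HET and 509.5 ± 35.6 in control libraries (SD, n = 5 each). Per kilobase of exon, the ratio of Nbn to Rad50 was 1.5, 1.37, 1.14, 1.11 and 1.31 in HET libraries, against 0.832, 0.820, 0.908, 0.901 and 0.942 in controls. Every HET library lay above every control. The ratio of Mre11a to Rad50 overlapped between the groups, at 0.487 ± 0.0520 in HET and 0.482 ± 0.0483 in controls. That of Nbn to Mre11a did not overlap. Ratios were also taken of Blm to Wrn, Xrcc6 to Xrcc5, Brca1 to Bard1, Ercc3 to Ercc2 and Parp2 to Parp1, and these all overlapped.

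**Figure D3:**
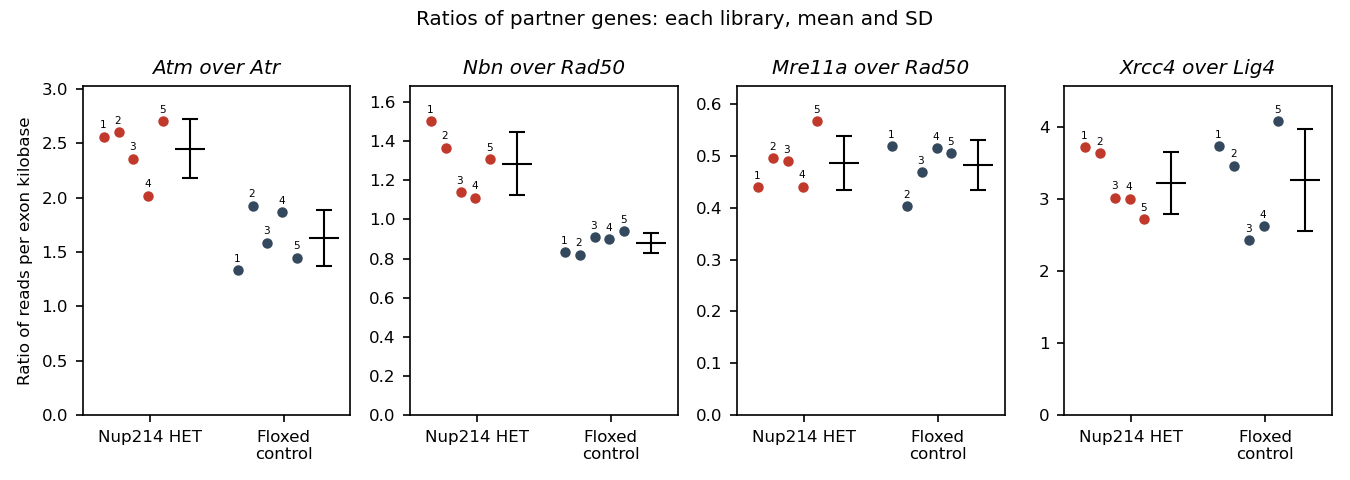
Ratio of normalized reads per kilobase of exon for 4 pairs of partner genes, in each library (numbered points) with the mean and SD of each group of 5; Nup214 HET is left of floxed control. HET libraries lie above every control for Atm over Atr and for Nbn over Rad50, and the groups overlap for Mre11a over Rad50 and for Xrcc4 over Lig4.

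Blm (ENSMUSG00000030528.12, mm10 chr7:80454733-80535119, minus strand) encodes the RecQ helicase that dissolves crossed strands after recombination, and its loss causes Bloom syndrome in humans. It had 359.8, 429.9, 453, 499 and 407 normalized reads in HET libraries, against 661, 651, 529, 611 and 572 in floxed controls. Every HET library was below the lowest control, library 3. The means were 429.8 ± 51.8 in HET and 605 ± 55.2 in control libraries (SD, n = 5 each), which is -0.495 as a log2 fold change (SE 0.12, adjusted p = 0.0210 by limma). The call was lost without control library 1 (adjusted p = 0.0586). Wrn, the other RecQ gene among the 44, split within the HET group instead. It had 204, 256, 499, 474 and 308 in HET libraries and 370.0, 412, 321, 266 and 407 in controls. HET libraries 1 and 2 lay below every control, HET libraries 3 and 4 above every control and HET library 5 among the controls.

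The promoter of Blm, the 1 repair gene called lower, is shown for comparison with those of Chek2 and Xrcc4 (RefSeq, GRCm38.p6, chr7:80534949-80535248, minus strand, 5′ to 3′, capitals as above).
Blm: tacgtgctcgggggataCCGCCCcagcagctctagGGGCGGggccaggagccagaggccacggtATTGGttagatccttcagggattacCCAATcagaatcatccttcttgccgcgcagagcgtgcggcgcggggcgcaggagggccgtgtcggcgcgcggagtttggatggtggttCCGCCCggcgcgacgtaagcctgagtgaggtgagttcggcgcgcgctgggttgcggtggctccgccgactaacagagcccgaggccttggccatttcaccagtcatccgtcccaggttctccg
It holds 2 CCAAT boxes, 1 on each strand, and 3 GC boxes, and no match of the E2F motif.

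Among the mediators and resection factors, Rbbp8, the gene of the resection factor CtIP, had the clearest separation short of a call. It averaged 863 ± 34.2 normalized reads in HET and 732 ± 60.3 in control libraries without overlap (SD, n = 5 each; log2 fold change 0.24, adjusted p = 0.116 by limma). Exo1, the exonuclease of long-range resection, averaged 555 ± 86.4 in HET and 523 ± 40.9 in control libraries. Brca1 averaged 397 ± 116 in HET and 373 ± 61.0 in control libraries, and its partner Bard1 averaged 74.3 ± 8.88 in HET and 63.6 ± 6.29 in controls. The group means of Brca2, a mediator of strand exchange, were 405 in HET and 447 in control libraries, and those of Palb2, which links BRCA1 to BRCA2, were 322 in HET and 319 in control libraries. Xrcc2 and Xrcc3, which also act in homologous recombination, had log2 fold changes of -0.25 and -0.26, with overlapping groups and adjusted p-values of 0.210 and 0.199 by limma.

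None of the 10 Fanconi genes passed the limma test, and their log2 fold changes were 5 positive and 5 negative, with a median of -0.04. An unadjusted p under 0.05 was seen for 3 (Fancl, Fancb and Fancg), edgeR called 0 and DESeq2 called 1. Fancl, the ubiquitin ligase subunit that marks FANCD2 and FANCI, came nearest. It had 261, 286, 185, 227 and 235 normalized reads in HET libraries, against 135, 171, 178, 187 and 187 in floxed controls. Only HET library 3 fell among the controls (log2 fold change 0.47, SE 0.153, adjusted p = 0.0586 by limma). Fancl passed with TMM scaling (adjusted p = 0.0402), with DESeq2 (adjusted p = 0.0339) and without HET library 3 (adjusted p = 0.0345). Annotated exons of Vrk2 on the opposite strand cover 13.7% of the exon bases of Fancl, and the strand of reads is not stated.

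No other core complex gene was called, and their log2 fold changes had both signs. Fancb, which holds the catalytic module with Fancl, averaged 146 ± 23.7 in HET and 108 ± 11.9 in control libraries (SD, n = 5 each; adjusted p = 0.0900 by limma). Fancg averaged 851 ± 74.3 in HET and 710.3 ± 28.7 in control libraries without overlap (adjusted p = 0.0999 by limma). Fanca, the binding partner of FANCG, pointed the other way with 357 ± 36.9 in HET and 407 ± 21.4 in control libraries. Fancc had 310.1, 333, 160.3, 224 and 239.9 in HET libraries and between 188 and 220.2 in controls, so that HET libraries 1 and 2 were high and HET library 3 was low. Fance, the link to FANCD2, averaged 159 ± 69.0 in HET and 191 ± 57.9 in control libraries. Fancf, the adaptor subunit with the lowest reads of all 44 genes, had 15.4 to 47.4 in HET and 36.0 to 68.4 in control libraries, and its interval, from -1.32 to 0.08, leaves a change of more than 2-fold possible.

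The substrates of the ligase also gave no call. Fancd2 averaged 462 ± 116 in HET and 536 ± 24.6 in control libraries, and Fanci averaged 379 ± 100 in HET and 358 ± 23.4 in controls (SD, n = 5 each). Both were lowest in HET library 1 and highest in HET library 4. The 2 genes encode a clamp that works as a pair, and their ratio per kilobase of exon was 0.905 ± 0.143 in HET and 1.09 ± 0.0852 in control libraries, with overlap. Fancm, the translocase that anchors the core complex, averaged 171 ± 25.7 in HET and 186 ± 33.3 in control libraries.

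In end joining, 1 of 5 genes was called higher. Xrcc4 (ENSMUSG00000021615.13, mm10 chr13:89774027-90089608, minus strand) encodes the scaffold that stabilizes DNA ligase IV. It had 176, 168, 235, 188 and 197 normalized reads in HET libraries, against 129, 132, 118, 139.8 and 156 in floxed controls. HET library 3 was the highest, and the lowest HET library exceeded the highest control. The means were 193 ± 26.0 in HET and 135 ± 14 in control libraries (SD, n = 5 each), which is 0.51 as a log2 fold change (SE 0.143, adjusted p = 0.0357 by limma). The call was the least stable of the 4: it held in 11 of 22 alternatives, and in 2 of the 10 fits that left out 1 library, where the adjusted p was 0.0510 to 0.0808 in the 8 that lost it. Exons of Tmem167 on the opposite strand share 2.66% of its exon bases.

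The promoter of Xrcc4, called higher as Chek2 was, is shown for comparison with those of Chek2 and Blm (RefSeq, GRCm38.p6, chr13:90089559-90089858, minus strand, 5′ to 3′, capitals as above).
Xrcc4: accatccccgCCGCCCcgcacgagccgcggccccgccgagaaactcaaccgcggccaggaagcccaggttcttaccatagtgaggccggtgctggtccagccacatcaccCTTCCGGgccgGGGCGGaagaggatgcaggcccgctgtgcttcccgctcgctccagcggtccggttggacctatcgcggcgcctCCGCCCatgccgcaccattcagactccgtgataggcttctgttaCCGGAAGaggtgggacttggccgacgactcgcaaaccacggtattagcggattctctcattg
It holds 2 ETS motifs, CCGGAAG on the printed strand and CTTCCGG on the other, and 3 GC boxes. Like that of Blm it has no match of the E2F motif, and it has no CCAAT box.

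Lig4, the ligase that XRCC4 holds, had a fold change of the same size and did not pass. It had 58.2, 57.2, 96.0, 77.4 and 89.2 normalized reads in HET libraries, against 42.7, 47.1, 60.0, 65.7 and 47.2 in controls (log2 fold change 0.50, SE 0.217, adjusted p = 0.130 by limma). HET libraries 3 to 5 lay above every control and HET libraries 1 and 2 among them, and without HET libraries 1 and 2 Lig4 passed (log2 fold change 0.74, adjusted p = 0.0315). The ratio of Xrcc4 to Lig4 per kilobase of exon was 3.22 ± 0.435 in HET and 3.27 ± 0.712 in control libraries. The 3 genes that form the DNA-dependent protein kinase at broken ends did not pass the test. Xrcc6, the gene of the Ku70 subunit, averaged 1359.9 ± 190 in HET and 1182 ± 91.7 in control libraries. Its partner Xrcc5 averaged 80.5 ± 25.8 in HET and 82.9 ± 15.6 in control libraries, and the catalytic subunit gene Prkdc averaged 359 ± 34.4 in HET and 344 ± 52.9 in controls (SD, n = 5 each).

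The remaining 12 genes, of base lesion, single-strand break and bulky lesion repair, gave no call by limma, edgeR or DESeq2, and 1 of them, Ercc3, had an unadjusted limma p under 0.05. Of the mismatch repair pair, Msh6, whose protein recognizes mispaired bases, had the smaller p. It had 560.1, 795, 917, 844 and 1033 normalized reads in HET libraries, against 762, 802, 649.5, 720.1 and 774 in floxed controls, with HET library 1 below every control and HET libraries 3 to 5 above every control (log2 fold change 0.14, adjusted p = 0.553 by limma). Pms2, the endonuclease subunit, averaged 409.7 ± 53.6 in HET and 386 ± 53.5 in control libraries (SD, n = 5 each).

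Among the 7 base excision and single-strand break genes, Ogg1, the glycosylase that removes oxidized guanine, had the smallest p. It had 95.4, 93.2, 133, 104 and 96.9 normalized reads in HET libraries, against 75.4, 73.0, 97.5, 85.6 and 83.8 in floxed controls, with HET library 3 the highest of all (log2 fold change 0.32, adjusted p = 0.199 by limma). Opposite-strand exons of Camk1 share 10.6% of the exon bases of Ogg1. Apex1, which cuts the DNA backbone at a lost base, was the most abundant repair gene per kilobase of exon, at 1502 in HET and 1567 in control libraries. It had 3038, 3022, 1447, 1625 and 1548 normalized reads in HET libraries, against 1976, 1930.3, 2555, 2603 and 2075 in controls. HET libraries 1 and 2 thus lay above every control and HET libraries 3 to 5 below every control. Apex1 was called lower without HET libraries 1 and 2 (log2 fold change -0.52, adjusted p = 0.0125 by limma) and higher without HET libraries 3 to 5 (log2 fold change 0.46, adjusted p = 0.0348). Exons of Pip4p1 on the opposite strand share 61.7% of its exon bases, so reads of the 2 genes cannot be told apart there.

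Ung, the glycosylase that removes uracil, showed the same split, with 986, 834, 563, 544 and 586 normalized reads in HET libraries and 687, 676, 686, 817 and 747 in controls. Without HET libraries 1 and 2 it was called lower (log2 fold change -0.35, adjusted p = 0.0395 by limma), and without HET libraries 3 to 5 its log2 fold change was 0.33 (adjusted p = 0.0908). Parp1, the sensor of nicks, averaged 1168 ± 202 in HET and 1290.3 ± 118 in control libraries, and Parp2 averaged 917 ± 180 in HET and 804 ± 33.8 in controls. Xrcc1, the scaffold of nick repair, averaged 988 ± 176 in HET and 913 ± 82.9 in control libraries, and its ligase gene Lig3 averaged 419 ± 84.3 in HET and 441 ± 40.1 in controls (SD, n = 5 each).

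Of the 3 nucleotide excision genes, Ercc3, a helicase of transcription factor TFIIH, came nearest to a call. It had 390.3, 492, 390.4, 382 and 367 normalized reads in HET libraries, against 297, 306, 318, 319 and 384 in floxed controls. The highest control, library 5, reached into the HET range (log2 fold change 0.31, SE 0.124, adjusted p = 0.103 by limma). Ercc2, the other TFIIH helicase, averaged 284 ± 103 in HET and 316 ± 52.6 in control libraries, with HET library 5 at 121 and the other HET libraries between 257 and 379. Ercc1, which belongs to the nuclease that cuts beside the lesion, averaged 298 ± 53.4 in HET and 257 ± 40.1 in control libraries (SD, n = 5 each).

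**Figure D4:**
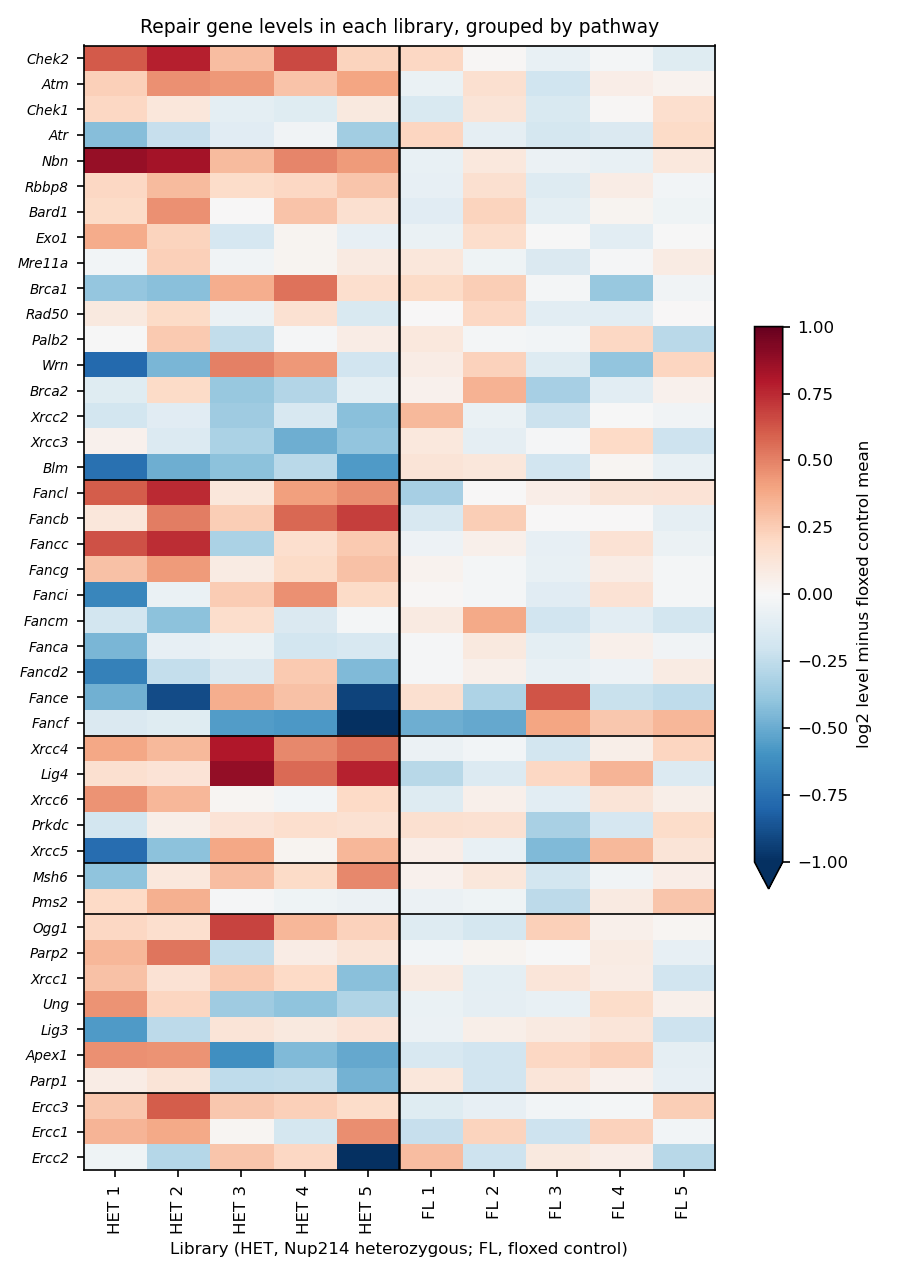
Each cell gives the log2 level of a repair gene in 1 library minus the mean of the 5 floxed controls (red above it, blue below it), with genes in rows by pathway and Nup214 HET columns left of floxed control columns. Nbn is red in all 5 HET columns and Blm blue in all 5, whereas Apex1, Ung, Wrn and Brca1 change color between HET libraries 1 and 2 and HET libraries 3 and 4.

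As in the genes of the same range of levels, the repair genes mostly varied more among HET libraries than among controls. The SD of the log2 level was larger in HET for 35 of 44 genes (79.5%), beside 76.0% of the genes in that range, a share near the background. Its median over the repair genes was 0.228 in HET and 0.146 in control libraries, and over the genes in the range 0.289 in HET and 0.188 in control libraries. Which repair genes were called depended on which HET libraries entered. Without HET libraries 1 and 2, Chek2, Lig4, Nbn and Xrcc4 were called higher and Apex1, Blm, Ung and Xrcc3 lower, 4 each, where 15.2% of genes in the range were higher and 8.49% lower. Without HET libraries 3 to 5, the 8 genes Apex1, Chek2, Fancc, Fancg, Fancl, Nbn, Parp2 and Xrcc6 were called higher and Blm, Fancd2 and Wrn lower, where 12.2% of genes in the range were higher and 11.0% lower. Chek2, Nbn and Blm were called in both reduced comparisons. These use the same 5 controls as the full comparison, so they are not independent of it or of each other. The part of the neutrophil and erythroid marker levels in these values was not tested.

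Beyond the 44 genes, 96 other repair genes passed the filter, of which 6 were called higher and 1 lower, with a median log2 fold change of 0.05. Of all genes tested, 5.0% were called higher and 8.01% lower, so calls at this rate do not set the repair genes apart. Of the called repair genes, 4 higher ones and the lower one are described. In damage signaling, 1 of 14 was higher, the clamp gene Rad9a (log2 fold change 0.34, adjusted p = 0.0496 by limma). In homologous recombination, 1 of 20 was higher, the nuclease gene Mus81, with 811, 888, 907, 808 and 839.5 normalized reads in HET libraries and 697, 676, 539.9, 606 and 605 in controls (log2 fold change 0.45, adjusted p = 0.0187 by limma). In the Fanconi group, 2 of 12 were higher. These were Ube2t, which encodes the ubiquitin-conjugating partner of FANCL (log2 fold change 0.39, adjusted p = 0.0429 by limma), and Faap20, a partner of FANCA (log2 fold change 0.40, adjusted p = 0.0432 by limma). In end joining, 1 of 6 was lower, the polymerase gene Polm, with 82.1, 69.5, 81.7, 53.3 and 86.1 normalized reads in HET libraries and 116, 136, 114, 153 and 119 in controls (log2 fold change -0.78, adjusted p = 0.0171 by limma). None of 20 nucleotide excision genes and none of 3 direct reversal genes passed.

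Many repair genes are transcribed with DNA replication, so the cell cycle genes are given beside them. Of 23 G1/S and replication genes, 7 were higher in HET and none lower, with a median log2 fold change of 0.19. Of all genes tested 5.0% were higher, and of the genes in the range of the repair genes 8.19%. Several of the 23, Mcm6 and Pcna among them, lie above that range, and no share was computed at their own levels. The 7 were Pcna, Rrm2, Ccne2, Mcm3, Tyms, E2f1 and Slbp, with log2 fold changes from 0.42 (Tyms) to 0.73 (Rrm2). In 5 of them, all but Mcm3 and Rrm2, every HET library lay above every control, which held for 7.9% of the genes in the range of the repair genes. Pcna, the gene of the replication clamp, averaged 12734 ± 1351 normalized reads in HET and 8988 ± 512 in control libraries (SD, n = 5 each; adjusted p = 0.0156 by limma). The most abundant, the helicase subunit genes Mcm6 and Mcm5, were not among those called (log2 fold changes 0.32 and 0.11, adjusted p-values 0.207 and 0.629 by limma). The list summed to between 107482 and 145356 normalized reads in HET and between 100994 and 123239 in control libraries. Of 21 G2/M genes none was called, and 0 had an unadjusted limma p under 0.05. The most abundant, Top2a and Ube2c, had log2 fold changes of 0.06 and -0.17. The part of the replication genes' levels in those of the repair genes was not tested.

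The sort markers and those of other cell types were read for the same reason. Of 5 sort gate genes, Kit and Ly6a (Sca-1) were lower in HET, and the most abundant, Fcgr3 and Fcgr2b, did not pass. Kit had 1271, 1676, 1097, 1152 and 673 normalized reads in HET and 2209, 1825, 2820.3, 1887 and 1822 in control libraries, so the defining c-Kit transcript was present in every library. Of 11 granulocyte-monocyte progenitor genes, 3 were higher and none lower, with 7 positive and 4 negative log2 fold changes. The most abundant, Elane and Mpo, did not pass (log2 fold changes 0.34 and -1.60, adjusted p-values 0.411 and 0.0611 by limma). Mpo stood at 677447 and 1102480 normalized reads in HET libraries 1 and 2 and between 118362 and 203243 in HET libraries 3 to 5. The controls held between 813165 and 1130910. Of the 15 mature neutrophil markers, none was higher and 1 was lower, and S100a8 and S100a9 did not pass.

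Of 14 tested monocyte and macrophage markers, 5 were higher, 1 was lower and 8 were not called, with 10 positive and 4 negative log2 fold changes. Over all genes tested, 5.0% were higher and 8.01% lower. Marco was at 0 in all controls. The 5 higher markers were Cd68, C1qa, C1qb, C1qc and Mrc1, all known from macrophages, with log2 fold changes from 1.53 (C1qb) to 1.94 (Cd68). Cd68 averaged 2513 ± 236 normalized reads in HET and 661 ± 127 in control libraries without overlap (SD, n = 5 each; adjusted p = 7.6e-06 by limma). The lower one was the monocyte marker Ly6c2, which with Adgre1 was the most abundant, at 18429 to 88057 in HET and 74869 to 111112 in control libraries. Ly6c2 makes up most of the list's sum in every library, so the sum does not follow the 5 higher genes. The list summed to between 24908 and 94904 normalized reads in HET and between 78361 and 114871 in control libraries. Of 11 tested erythroid markers, 2 were higher, and Hba-a1 and Hba-a2 were the most abundant. That list summed to between 11.5 and 2804 in HET and between 24.0 and 90.3 in control libraries. Of 10 B cell markers, Cd79a was higher and Cd79b lower, and the list summed to between 563 and 948 in HET and between 1079 and 1362 in control libraries. Of 5 tested T and NK cell markers none was called, with Cd4 and Lck the most abundant, and the list summed to between 13.9 and 49.2 in HET and between 18.5 and 34.4 in control libraries. Of 7 tested endothelial markers, Egfl7 was lower and the more abundant Pecam1 did not pass. The part of these cell types in the levels of the repair genes was not tested.

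RefSeq promoters of the same window were available for 35 of the 44 genes, and 6 short motifs were searched as exact letters on both strands. The GC box GGGCGG was held by 71.4% of the 35, beside 35.9% of all 27025 promoters and 46.3% of the 17491 of protein-coding genes. The CCAAT box CCAAT was held by 60.0% of the 35, beside 37.9% of all and 39.0% of coding promoters. The ETS motif CCGGAAG was held by 25.7%, beside 9.12% of all and 11.9% of coding promoters. The E2F letters TTTGGCGC or TTTCCCGC were held by 17.1%, beside 1.63% of all and 2.09% of coding promoters, and the NRF1 core GCATGCG by 17.1%, beside 3.64% of all and 4.48% of coding promoters. The cell cycle homology region TTTGAA was held by 2.86%, beside 18.1% of all and 16.5% of coding promoters. Besides Chek2, the genes with the E2F letters were Bard1, Brca2, Fancg, Msh6 and Xrcc6, and none of these was called between the groups. Matches of an ETS motif and a GC box overlapped in Pms2. These shares describe letters in a window and say nothing of binding.

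Counting across strands touches a part of these genes. In the mm10 GENCODE annotation, 24 of the 44 share exon bases with another gene, and 22 of these with a gene on the opposite strand. The largest shares after that of Apex1 are 25.1% of Lig3 with Rffl, 24.6% of Ercc2 with Gm26852, 17.8% of Ercc2 with Klc3, 16.4% of Fancc with Gm16133, 16.0% of Fanci with Polg and 15.0% of Fancf with Gas2. Chek2, Nbn and Blm share none. Per kilobase of exon, the levels of the 44 genes ran from Atr, at 7.02 in HET and 8.25 in control libraries, through Nbn, at 239 in HET and 157 in control libraries, and Chek2, at 302 in HET and 210 in control libraries, to Apex1. The place of Atr rests on its 23629 annotated exon bases, and in normalized reads Fancf was the lowest.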

How the data were processed

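RNA-seq libraries of 5 Nup214 HET and 5 floxed control samples were compared; per the labels' protocols, RNA was amplified by Geo-seq and made into TruePrep libraries, with no molecular identifiers or strand described. HTSeq, DESeq2, Cufflinks 2.1.1 and Bowtie 0.12.9 are listed, per the submitters' processing notes, with mm10 as the build and no role or order. The authors' deposited signal holds the reads of a gene over 1 library factor. Multiplied back, every nonzero value was a whole read within 0.01 in 8 libraries, as were at least 99.996% of them in the other libraries. Intervals from depth would cover counting error only.

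Groups were compared with limma 3.58.1 under R 4.3.3, on log2(value + 1) with an intensity trend, which understates changes of low genes, fitting genotype alone. It took the 22458 genes that reached 1 in 5 or more libraries, with Benjamini-Hochberg adjustment and calls at an adjusted p under 0.05. The procedure was tested on simulated counts with the same spread in both groups and no split within a group. The HET libraries differ from that setting on both points. On the recovered counts, edgeR 4.0.16 called 974 genes higher and 788 lower, and DESeq2 1.42.0 called 1550 higher and 1812 lower. Other alternatives were scaling, filters, the pseudocount, sample weights, a replicate block and left-out libraries. No library repeated another (the closest pair had a chi-square over its degrees of freedom of 15.5).

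The 44 genes and all lists were chosen with earlier results of these data known. Values in every library are given for each gene called and, in a pathway with none called, for the one with the smallest unadjusted p; the others are given by mean, range and count, with every library's value added after seeing the data for Atm, Lig4, Wrn, Fancc, Apex1 and Ung. Of the other repair genes those called are named, at most 3 per direction and pathway, and of the cell cycle and marker lists the 2 with the highest mean; Kit, Ly6a, Marco and the called G1/S and macrophage genes were named after their values were seen. Of the genes this rule takes, some are not reported here, though they stayed in the fits and counts. Symbols were matched to GENCODE for mm10 (49806 of 52171 genes, and 273 of 275 list genes were in the table), and RefSeq promoters are of GRCm38.p6. Summaries and plots used Python 3.11.15, pandas 2.3.3, scipy 1.17.1 and matplotlib 3.10.9.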

Additional observations from a re-analysis of the deposited data

Results flagged for a closer look

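In 4 of 90 groups of 5 values checked, over the 44 repair genes and Nup214, 1 library stood apart from the other 4, with a gap to its nearest neighbor above 0.71 of the group's range. Chance alone flags about 1 group in 20. Xrcc1 was 682.7 normalized reads in HET library 5, and the nearest HET library was at 1008. Ogg1 was 132.5 in HET library 3, and the nearest was at 104.1. Ercc3 was 492 in HET library 2, with the nearest HET library at 390.4, and 383.8 in floxed control library 5, with the nearest control at 319.4.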

How the results depend on the processing

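Over 22 alternatives, Nbn was called in all (adjusted p 0.000541 to 0.0496), Chek2 and Blm in 20 each and Xrcc4 in 11. Leaving out each library gave 1 to 3 repair genes higher and 0 to 1 lower; without floxed control library 5 it was 1 higher and without control library 1 it was 0 lower. Without HET libraries 1 and 2 it was 4 lower, and without HET libraries 3 to 5 it was 8 higher and 3 lower. Same-numbered libraries did not deviate together (correlations -0.0905 to 0.0817), so the numbers do not pair them; a fit with the replicate block called 2 repair genes higher and 0 lower, with Blm at adjusted p 0.0568 and Xrcc4 at 0.0826. Over all genes, the 1122 higher and 1798 lower became 703 and 945 with the block, 559 to 1313 and 599 to 2250 with 1 library left out (controls left out in turn: library 1 gave 559 and 599, library 5 gave 653 and 762, library 2 gave 727 and 1109, library 3 gave 718 higher; leaving out HET library 5 gave 1014 lower), and 2095 and 2707 without HET libraries 1 and 2. Lower calls were 517 with quantile normalization, 1119 without a filter, 1063 with a minimum of 5, 1028 with a pseudocount of 0.1 and 788 by edgeR. The share of higher calls was 38.4%, 60.1% after quantile normalization and 48.5% with TMM.

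Signs turned only for genes not called in the full comparison, and the cause was not tested. As log2 fold changes, quantile normalization gave Brca1 -0.00513, Palb2 -0.0309, Rad50 -0.0706, Mre11a -0.0178, Exo1 -0.0063, Fanci -0.0149 and Xrcc1 -0.0153. Upper quartile scaling gave Chek1 -0.0202, Brca1 -0.00657, Palb2 -0.045, Rad50 -0.0129, Mre11a -8.41e-05 and Fanci -0.022. Sample weights gave Chek1 -0.00957 and Wrn 0.0213, and edgeR gave Chek1 -0.00394 and Palb2 -0.0281. Without HET libraries 1 and 2, Chek1 was -0.0412, Palb2 -0.0607, Rad50 -0.0204, Wrn 0.25, Exo1 -0.0736, Fancm 0.00405, Xrcc5 0.251, Pms2 -0.0385, Lig3 0.12 and Parp2 -0.00909. Without HET libraries 3 to 5, Brca1 was -0.402, Brca2 0.0363, Fanci -0.358, Prkdc -0.0615, Msh6 -0.148, Parp1 0.0992, Ung 0.331 and Apex1 0.456, the last called. With 1 library left out, the ranges were -0.00296 to 0.0805 for Chek1, -0.247 to 0.074 for Wrn, -0.00041 to 0.135 for Exo1, -0.202 to 0.086 for Xrcc5, -0.152 to 0.0239 for Lig3, -0.052 to 0.08 for Palb2, -0.0688 to 0.171 for Brca1, -0.068 to 0.21 for Fanci, -0.211 to 0.00239 for Ung, -0.368 to 0.0412 for Ercc2 and -0.0129 to 0.131 for Prkdc.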
